A study of Mus musculus with 6 samples.

Results

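The type 2 cytokine system was followed in the mouse duodenum through 10 genes: the cytokines Il4, Il5 and Il13, the alarmins Il33 and Tslp, the receptor genes Il4ra, Il13ra1 and Il1rl1, and the transcription factor genes Gata3 and Stat6. The genes were chosen by name, with earlier results of these data known, and each matched 1 of the 23699 gene models of the deposited tables. Of the 10, 7 had 3 or more libraries with an FPKM of 0.5 or higher and were tested together with all 13596 gene models that met this filter, where FPKM is the number of sequenced fragments scaled to transcript length and library depth. Il4, Il5 and Il13 did not reach that level, and are given as values per library. RNA came from the first 2 cm of duodenum beyond the stomach of mice aged 6 weeks, all on a mixed background, with 3 libraries in each of the groups. Controls carried Nkx2.2flox/+. Mutants 1 and 2 carried Nkx2.2flox/flox; Villin-Cre/+, and mutant 3 carried Nkx2.2flox/flox; Villin-Cre/+; Rosa26Tomato/+. Villin-Cre is active in the intestinal epithelium, so that the floxed Nkx2-2 gene, which encodes a homeodomain factor of enteroendocrine cells, was targeted there and not in the immune or connective tissue cells of the same sample. No Cre allele is listed for the controls, so effects of Cre and of the deletion cannot be told apart, and neither can those of the Tomato allele and of the library of mutant 3. The whole tissue was sequenced, in which fewer cells of a type and less RNA per cell cannot be told apart. Separate animals are not stated in words in the labels, so p-values measure only the spread between these samples.

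Type 2 immunity is the arm of the immune response raised against worms and in allergy. Epithelial and connective tissue cells release the alarmins IL-33 and TSLP when stressed or damaged, and IL-33 binds ST2, the product of Il1rl1, on group 2 innate lymphoid cells, Th2 cells and mast cells. GATA3, the factor that these lymphocytes depend on, drives their IL-5 and IL-13, and IL-4 comes mainly from Th2 cells, basophils and mast cells. IL-4 and IL-13 share a receptor made of the chains IL-4Rα and IL-13Rα1, whose associated JAK kinases phosphorylate STAT6. In the small intestine that signal acts on epithelial progenitors to raise the number of goblet and tuft cells, and tuft cells in turn secrete IL-25, which acts on the innate lymphoid cells.

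The sequence just upstream of a start site is shown for 3 genes on which the results below turn, 1 cytokine of very low level, 1 receptor with a soluble and a membrane form, and 1 alarmin with a pair of start sites. Each is 250 bases of the mm9 genome (NCBIM37) ending at the base before the first base of the deposited RefSeq model, written 5′ to 3′ on the strand of the gene. Capitals mark matches, on either strand, to a GATA word (AGATAA or AGATAG) or to the spacing bound by STAT6 (TTC and GAA, with any 4 bases between them). The windows are chr11:53448205-53448454 on the minus strand for Il13 (model NM_008355), chr1:40496244-40496493 on the plus strand for the short model of Il1rl1 (NM_010743), and, both on the plus strand of chromosome 19, chr19:29999354-29999603 for the upstream start of Il33 (NM_133775) and chr19:30020030-30020279 for its downstream start (NM_001164724).
Il13: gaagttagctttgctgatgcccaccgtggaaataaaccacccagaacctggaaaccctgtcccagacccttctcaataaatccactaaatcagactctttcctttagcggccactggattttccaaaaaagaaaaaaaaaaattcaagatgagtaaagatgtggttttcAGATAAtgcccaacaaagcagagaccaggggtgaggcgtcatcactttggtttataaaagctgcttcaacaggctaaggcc
Il1rl1: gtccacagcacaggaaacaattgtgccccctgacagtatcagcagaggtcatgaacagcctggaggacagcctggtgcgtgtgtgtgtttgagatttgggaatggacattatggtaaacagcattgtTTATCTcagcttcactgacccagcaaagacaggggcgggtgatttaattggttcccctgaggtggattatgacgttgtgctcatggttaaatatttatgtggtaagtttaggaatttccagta
Il33 upstream start: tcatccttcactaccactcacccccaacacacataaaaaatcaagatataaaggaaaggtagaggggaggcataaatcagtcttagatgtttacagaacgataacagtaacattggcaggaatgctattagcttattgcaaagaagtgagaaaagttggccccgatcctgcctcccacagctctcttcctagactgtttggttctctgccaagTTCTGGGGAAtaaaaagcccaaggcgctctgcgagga
Il33 downstream start: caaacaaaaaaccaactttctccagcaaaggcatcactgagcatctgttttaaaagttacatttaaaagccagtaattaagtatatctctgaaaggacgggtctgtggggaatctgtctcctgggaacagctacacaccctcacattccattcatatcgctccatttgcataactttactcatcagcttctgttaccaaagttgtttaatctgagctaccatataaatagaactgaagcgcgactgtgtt
The Il13 window held AGATAA from 81 to 76 bases upstream of the start. The Il1rl1 window held the same word on the other strand, read as TTATCT, from 123 to 118 bases upstream. Upstream of the first Il33 start lay TTCTGGGGAA, from 37 to 28 bases before it, and the window of the downstream start held no match. Among 32851 mouse promoters of RefSeq (GRCm38.p6), searched over the same length, 16.5% held a GATA word and 5.85% the STAT-type spacing, and the words do not overlap one another. These matches describe the letters only, since binding was not measured.

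The libraries held 21.0 to 26.3 M fragments, and the 3 controls together 69.5 M against 66.1 M in the 3 mutants. Epithelial markers, which define the labelled tissue, were abundant, with sums of 4859 to 5852 FPKM per control and 4840 to 5917 FPKM per mutant, while T cell markers summed to 59.3 to 67.7 FPKM per control and 57.4 to 65.3 FPKM per mutant. The targeted gene itself, Nkx2-2, overlapped between the groups, at 0.779 to 1.32 FPKM across controls and 0.221 to 1.10 FPKM in mutants. Libraries 3 of both groups resembled one another, and mutant 3 stood apart from mutants 1 and 2 in several of the gene lists described below.

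In control duodenum the levels per transcript length of the 10 genes spanned from near 0 to over 50 FPKM, and the signal-receiving genes lay far above the cytokines. Il13ra1 had the highest mean level (57.3 ± 3.59 FPKM, SD, n = 3), followed by Stat6 (42.5 ± 3.19 FPKM) and Il4ra (19.5 ± 5.25 FPKM). Il33 (7.90 ± 1.26 FPKM) and Il1rl1 (5.60 ± 2.02 FPKM) came next. Tslp (0.327 ± 0.0790 FPKM) and Gata3 (0.315 ± 0.0976 FPKM) were low, and Il4 (0.0711 ± 0.0624 FPKM), Il13 (0.0312 ± 0.0541 FPKM) and Il5 (0.0211 ± 0.0185 FPKM) lowest. The control libraries of Il33 and Il1rl1 overlapped, as did those of Tslp and Gata3, and those of Il4, Il13 and Il5. All other neighbours in this order were separated in every control library. In the mutants the order of the means was the same, from Il13ra1 (58.4 ± 3.61 FPKM) to Il13 (0.147 ± 0.131 FPKM) and Il5 (0.0106 ± 0.0183 FPKM).

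**Figure D1:**
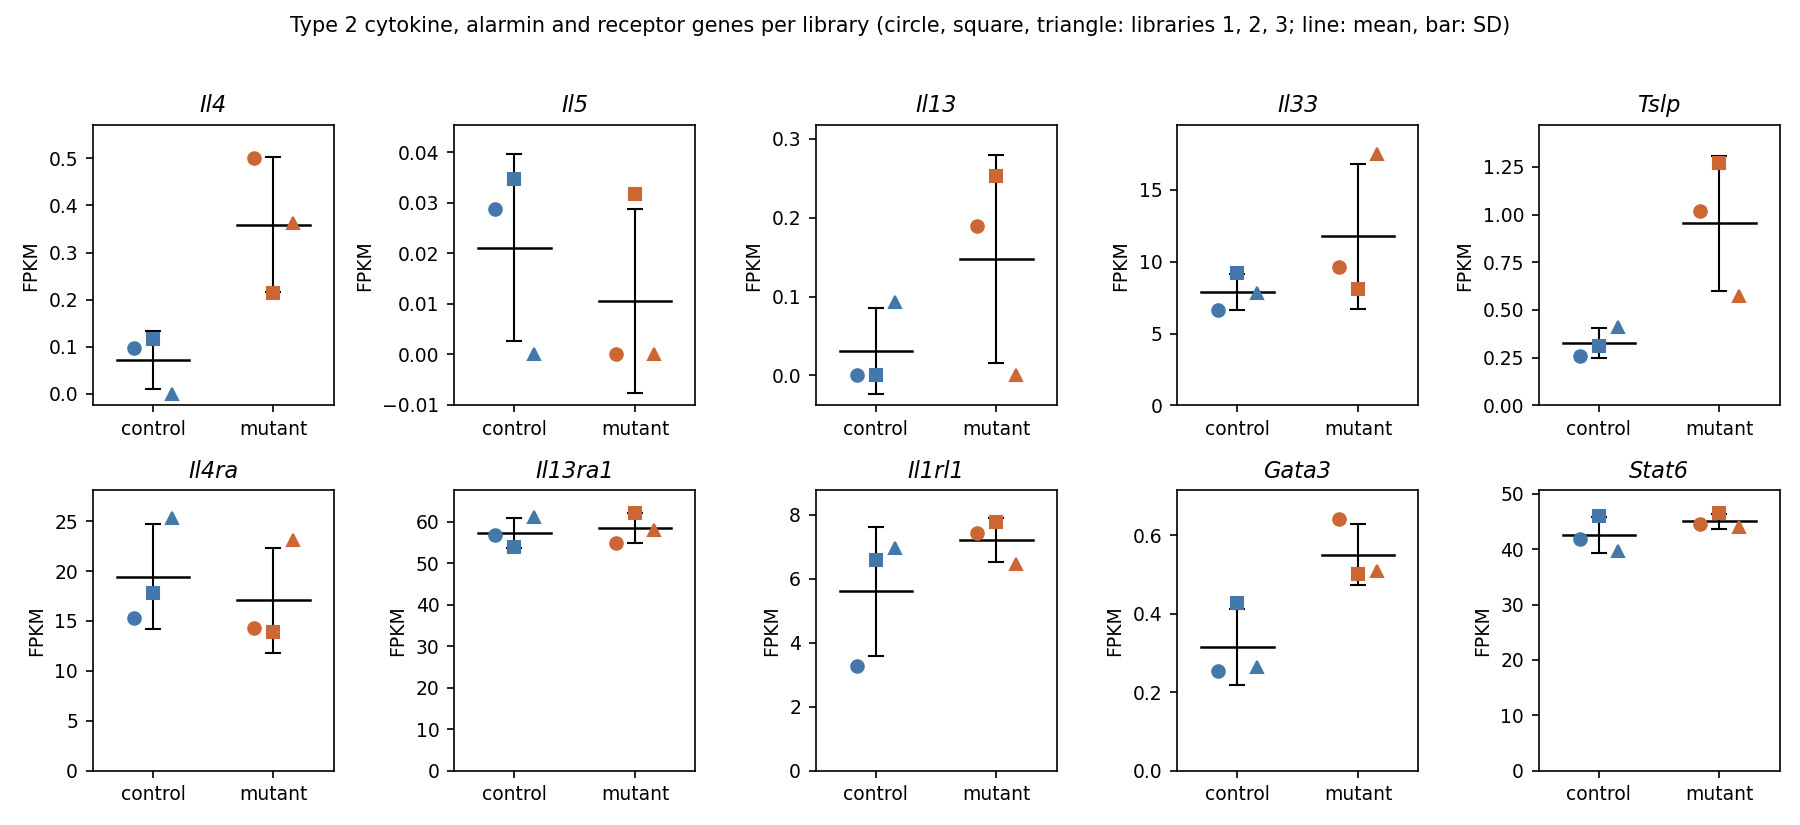
FPKM of each of the 10 genes (vertical axis, a scale of its own in each panel starting at or just below 0) in 3 control and 3 mutant libraries. Points are libraries, lines are means and bars are SD. Mutants and controls do not overlap for Il4, Tslp and Gata3, while Il13ra1 and Stat6 stay within 53.9 to 62.2 and 39.7 to 46.5 FPKM.

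The first question was whether transcripts of the 3 type 2 cytokines, which lie near one another on chromosome 11, differed between mutant and control duodenum. All were so rare that single fragments set their values, and Il4 alone was higher in every mutant than in every control. Il4 (chromosome 11, 53425963 to 53432167, mm9) measured 0.0968, 0.117 and 0 FPKM across controls 1 to 3, and 0.502, 0.213 and 0.364 FPKM across mutants 1 to 3. The highest control was thus below the lowest mutant, and mutant 1 was the highest library. A count of 0 allows up to 3 reads, or 0.291 to 0.364 FPKM per library, and mutant 1 alone lay above that limit, while mutant 3 was at it and mutant 2 and the controls were under it. Read numbers, rebuilt from the deposited coverage, were 1, 1 and 0 in controls and 4, 2 and 3 in mutants. The sum of 2 reads in controls (95% exact Poisson interval 0.242 to 7.22) stood against 9 in mutants (4.12 to 17.1). Per fragment sequenced the ratio was 4.73, with an exact interval of 0.98 to 45.0 that includes 1 and covers counting error only. Over the 6 libraries the two-sided exact permutation test had p = 0.1, the smallest value open to 3 against 3. The separation holds for the sum of 2 models. By estimate the coding model (NM_021283) received 0 reads in each control and 4, 0 and 0 in mutants 1 to 3. The noncoding model (NR_027491) received 1, 1 and 0 reads in controls and 0, 2 and 3 in mutants. With so few reads the split is uncertain.

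Il13, the cytokine that acts most on goblet cells, was seen in 2 of the 3 mutants and in 1 control. Il13 (chromosome 11, 53444825 to 53448204) measured 0, 0 and 0.0937 FPKM across controls 1 to 3, and 0.189, 0.253 and 0 FPKM across mutants 1 to 3. Behind these values were 0, 0 and 2 reads in controls and 4, 6 and 0 reads in mutants. The groups overlapped, because control 3 had reads and mutant 3 had none. Mutants 1 and 2 lay above the limit that a count of 0 allows (3 reads, or 0.115 to 0.144 FPKM per library), and all other libraries did not. Summed, 10 reads in mutants (exact Poisson interval 4.80 to 18.4) stood against 2 in controls, a ratio per fragment of 5.26 (1.12 to 49.4). That interval leaves out the spread between libraries, and over the libraries the two-sided exact permutation test had p = 0.4.

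Il5, the growth and survival factor of eosinophils, was at the edge of detection. Il5 (chromosome 11, 53534296 to 53538605) rested on 1, 1 and 0 reads in controls and 0, 1 and 0 reads in mutants, or at most 0.0347 FPKM in any library. Every library was thus under the limit of 3 reads, which corresponds to 0.0864 to 0.108 FPKM. The two-sided exact permutation test had p = 0.7. In the authors' deposited table, whose counts are means per group with no spread, the normalized count was 0.964 in controls and 2.74 in mutants for Il4 (fold 2.84, p = 0.436). The authors' deposited table gave 0.682 and 3.45 for Il13 (fold 5.06, p = 0.186). For Il5 the authors' deposited table gave 0.920 and 0.674 (fold 0.733, p = 1.0).

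**Figure D2:**
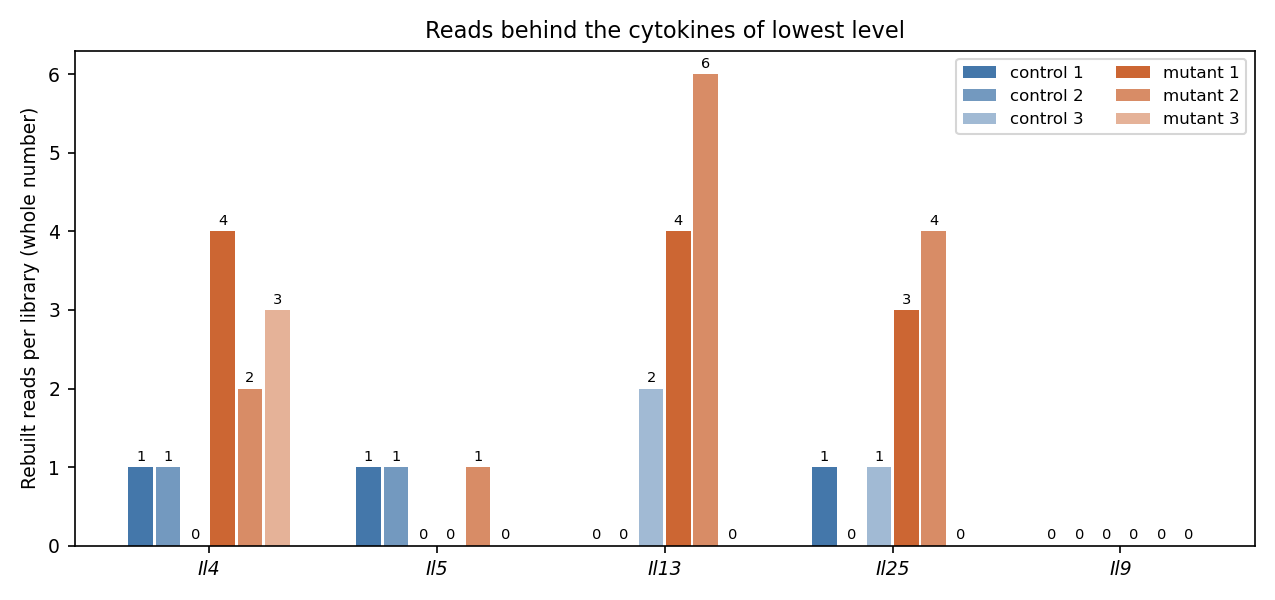
Whole reads rebuilt from the deposited coverage (vertical axis, reads per library) for Il4, Il5, Il13, Il25 and Il9 in each of the 6 libraries (blue bars controls, orange bars mutants). No bar exceeds 6 reads. Il13 and Il25 have reads in mutants 1 and 2 and none in mutant 3, and Il9 has none in any library.

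The alarmins, which act upstream of those cytokines, were measured with more reads. Il33 (chromosome 19, 29999604 to 30035205), a nuclear cytokine set free by damaged cells, measured 6.66, 9.19 and 7.86 FPKM across controls 1 to 3, and 9.64, 8.11 and 17.5 FPKM across mutants 1 to 3. Mutant 3 was the highest by far, mutant 2 lay below control 2, and the groups overlapped. The mean was 7.90 ± 1.26 FPKM across controls and 11.8 ± 5.05 FPKM in mutants, and the log2 change of FPKM + 0.5 was 0.48 ± 0.28 (SE; limma adjusted p = 0.999). The change rested on mutant 3, as it was 0.16 without that library and 0.70 without mutant 2. Markers of endothelium and fibroblasts, cells that store IL-33, summed to 249, 250.4 and 371 FPKM across controls 1 to 3 and to 237, 202 and 330 FPKM across mutants 1 to 3, so that both libraries numbered 3 were the highest of their group and control 3 lay above mutant 3. Of these 12 markers all were tested and limma called 0 (0 at an unadjusted p under 0.05, 0 by limma-voom, median log2 change -0.14). With the replicate block limma again called 0. At an unadjusted p under 0.05, 4 were lower, against 6.76% of all tested genes in either direction. The 4, named after their values were seen, were the collagen genes Col1a1 and Col1a2 and the proteoglycan genes Dcn and Lum (lowest limma adjusted p = 0.409). Of the 12, 2 changed upward, Pecam1 (log2 change 0.06) and Kdr (0.13), and Col3a1 was nearly level (-0.01). The summed level was lower in the mutant in 3 of 3 pairs. Pairing by number was assumed from these same data, and how often other sums fall in every pair was not counted. The block and pair results for these markers are thus a description only. The part of these cells in the Il33 levels was not tested.

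Il33 has 2 deposited models, which differ in where transcription starts. The downstream start, at 30020280, accounted for the whole of the gene's FPKM except in control 2, and measured 6.66, 7.96 and 7.86 FPKM across controls, and 9.64, 8.11 and 17.5 FPKM across mutants. Without the upstream model the lowest mutant, mutant 2, lay just above the highest control (log2 change 0.55 ± 0.28, limma adjusted p = 0.999). The upstream start, at 29999604, received 62 reads in control 2 (1.23 FPKM, 13.4% of the gene) and 0 reads in each of the other 5 libraries. Cufflinks splits the reads of shared exons between models by estimation, so a model at 0 is a fitted value and not a count.

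Tslp, the cytokine thymic stromal lymphopoietin, was the alarmin whose groups did not overlap. Tslp (chromosome 18, 32975037 to 32979453) measured 0.257, 0.311 and 0.413 FPKM across controls 1 to 3, and 1.02, 1.27 and 0.573 FPKM across mutants 1 to 3. The 3 mutants lay above the 3 controls, with mutant 3 nearest to them. The means were 0.327 ± 0.0790 and 0.954 ± 0.354 FPKM (log2 change 0.79 ± 0.21, limma p = 0.00692, adjusted p = 0.999), and the two-sided exact permutation test had p = 0.1. Rebuilt reads numbered 6, 6 and 8 in controls and 20, 28 and 11 in mutants, and their ratio per fragment was 3.10 (exact interval 1.84 to 5.44, counting error only). Tslp passed the filter on low values through the mutants alone, since no control reached 0.5 FPKM, and leaving out any mutant removed it from the tested genes. In the authors' deposited table the mean normalized count was 6.18 in controls and 19.3 in mutants (fold 3.11, p = 0.00936, adjusted p = 1.0).

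The isoform estimates of Tslp moved between models from library to library. The coding model (NM_021367) received 0, 6 and 8 reads in controls and 0 in every mutant. The noncoding model (NR_033206), which starts downstream within the locus, received 6, 0 and 0 reads in controls and 20, 28 and 11 in mutants (log2 change 1.30 ± 0.30, limma adjusted p = 0.946). In each library nearly all reads were thus given to a single model. With so few reads the split is uncertain, and it was not read as a change of isoform.

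The receptor genes address whether the tissue differed in the transcripts that receive these signals, and none of the 3 passed the test. Il4ra (chromosome 7, 132695796 to 132722988), the chain shared by the receptors of IL-4 and IL-13, measured 15.2, 17.8 and 25.3 FPKM across controls 1 to 3, and 14.3, 13.9 and 23.1 FPKM across mutants 1 to 3. Both libraries numbered 3 were the highest of their group, and the groups overlapped. The means were 19.5 ± 5.25 and 17.1 ± 5.25 FPKM (log2 change -0.19 ± 0.25, limma adjusted p = 0.999). Within numbers, Il4ra was lower in the mutant than in the control in 3 of 3 pairs, by 0.09 to 0.35 on the log2 scale. Il4, Tslp, Gata3 and Stat6 were higher in the mutant in 3 of 3 pairs. The share of all genes with the same direction in every pair was not counted, so the pairs are a description only. Blocking on the replicate number narrowed the error of Il4ra to 0.11 (limma adjusted p = 0.772). Leaving out control 3 brought the log2 change to 0.01, and leaving out mutant 3 to -0.42.

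Il13ra1 (chromosome X, 33652134 to 33711256), the chain that completes the IL-13 receptor on epithelium, measured 56.8, 53.9 and 61.1 FPKM across controls, and 55.0, 62.2 and 58.1 FPKM across mutants. The libraries of both groups were interleaved. Its log2 change of 0.03 ± 0.10 (limma adjusted p = 0.999) had the smallest size of the 7 tested genes, and ranged from -0.02 to 0.08 when single libraries were left out.

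Il1rl1 (chromosome 1, 40496494 to 40522259) encodes ST2, the receptor of IL-33, in a membrane form that signals and a soluble form that acts as a decoy. Its level was 3.28, 6.57 and 6.96 FPKM across controls 1 to 3 and 7.42, 7.76 and 6.45 FPKM in mutants 1 to 3. Control 1 was the lowest library, and mutant 3 lay below controls 2 and 3. The means of 5.60 ± 2.02 and 7.21 ± 0.675 FPKM differed by a log2 change of 0.40 ± 0.26 (limma adjusted p = 0.999). Without control 1 the change was 0.08, so that this library set most of it.

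The short model of Il1rl1 (NM_010743, 3002 bases), which encodes the soluble form and whose upstream sequence is given above, was the more abundant. It measured 2.71, 5.84 and 5.96 FPKM across controls, and 6.39, 6.57 and 5.52 FPKM across mutants. The long model (NM_001025602, 5071 bases), which encodes the membrane form, measured 0.565, 0.733 and 0.999 FPKM across controls, and 1.03, 1.18 and 0.933 FPKM across mutants. Both were lowest in control 1, and in both the groups overlapped. The log2 change was 0.39 ± 0.29 for the short model (limma adjusted p = 0.999) and 0.30 ± 0.20 for the long model (limma adjusted p = 0.999). The ratio of the short to the long model was 4.80, 7.97 and 5.96 in controls and 6.19, 5.57 and 5.92 in mutants. All 3 mutant ratios fell within the range of the controls (6.24 ± 1.60 against 5.89 ± 0.311, exact two-sided permutation p = 0.8). The start of the long model at 40497473 is an exon start in 5 of 5 transcripts of GENCODE vM1, of which 4 have an exon before it, so it may not mark a start of transcription and no upstream sequence is shown for it.

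**Figure D3:**
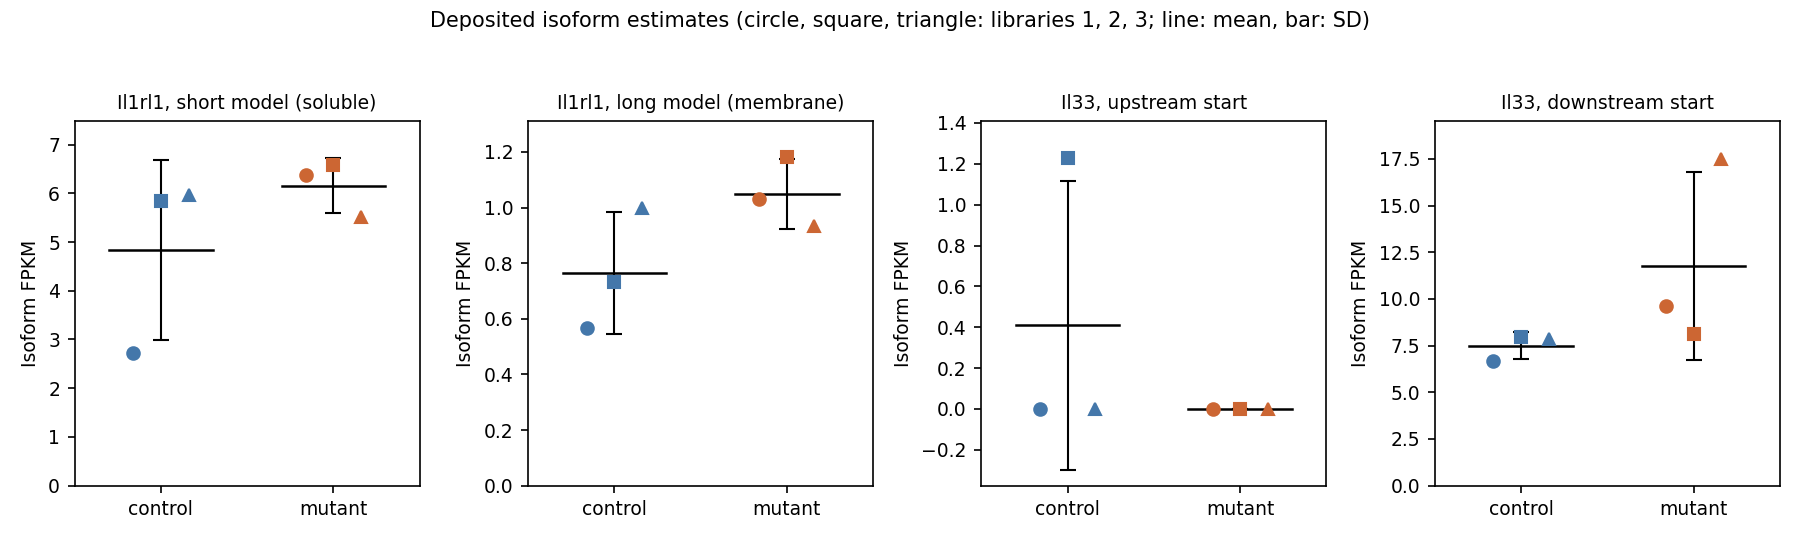
Isoform FPKM (vertical axis, a scale of its own in each panel) of the short and long models of Il1rl1 and of the upstream and downstream starts of Il33 in 3 control and 3 mutant libraries. Points are libraries, lines are means and bars are SD. The short Il1rl1 model is several times the long one in every library (ratios 4.80 to 7.97), and the upstream Il33 start is seen in control 2 alone.

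The transcription factors lay at opposite ends of the range of levels. Gata3 (chromosome 2, 9778705 to 9800227), the lineage factor of type 2 lymphocytes, measured 0.254, 0.428 and 0.264 FPKM across controls 1 to 3, and 0.641, 0.503 and 0.508 FPKM across mutants 1 to 3. The lowest mutant lay above the highest control, control 2, by a narrow margin. Rebuilt reads numbered 20, 28 and 17 in controls and 41, 36 and 32 in mutants, a ratio per fragment of 1.76 (exact interval 1.29 to 2.44, counting error only). The log2 change was 0.37 ± 0.16 (limma p = 0.05, adjusted p = 0.999), and the two-sided exact permutation test had p = 0.1. Like Tslp, Gata3 passed the filter through the mutants alone. In the authors' deposited table its mean normalized count was 21.2 in controls and 37.6 in mutants (fold 1.78, p = 0.0491, adjusted p = 1.0).

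Stat6 (chromosome 10, 127080042 to 127098043), the factor activated by the IL-4 receptor, measured 41.9, 46.0 and 39.7 FPKM across controls, and 44.6, 46.5 and 43.9 FPKM across mutants. Mutant 2 was the highest library, and control 2 lay above mutants 1 and 3. The log2 change was 0.08 ± 0.10 (limma adjusted p = 0.999). STAT6 is controlled by phosphorylation, which transcript levels do not report.

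Over the 10 genes, limma called 0 of the 7 tested, where it called 3 of 13596 tested genes (0.0221%). At an unadjusted p under 0.05 there was 1, Tslp, against 3.43% of all tested genes. Because Tslp entered the test through its level in the mutants, this count is not support for a difference. Limma-voom on rebuilt reads also called 0. It held 2 at an unadjusted p under 0.05, Tslp and Gata3, against 478 of 13596 tested genes. Gata3 too passed the filter through the mutants alone, so that count is no support either. With the replicate block limma called 0 of the 7, against 0.162% of all tested genes, and again 1 had an unadjusted p under 0.05, Tslp (adjusted p = 0.423), against 6.76%. The authors' deposited table called 0 of the 10 at its adjusted p, against 0.140% of 18605 genes, and at an unadjusted p under 0.05 it held 2, Tslp and Gata3, against 2.16%. Of the isoforms of these genes, 0 passed, against 0.00617% of 16213, and 1 had an unadjusted p under 0.05, the noncoding model of Tslp, against 3.79%. In 3 of the 10 genes, Il4, Tslp and Gata3, all mutants lay above all controls, a pattern held by 4.11% of the 18816 genes above 0 in at least 1 library, and in 0 of the 10 did all mutants lie below, against 3.99%. None of the 3 has more than 41 reads in any library. The 10 genes were chosen with earlier results of these data known, so the count of 3 is no support for a difference.

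**Figure D4:**
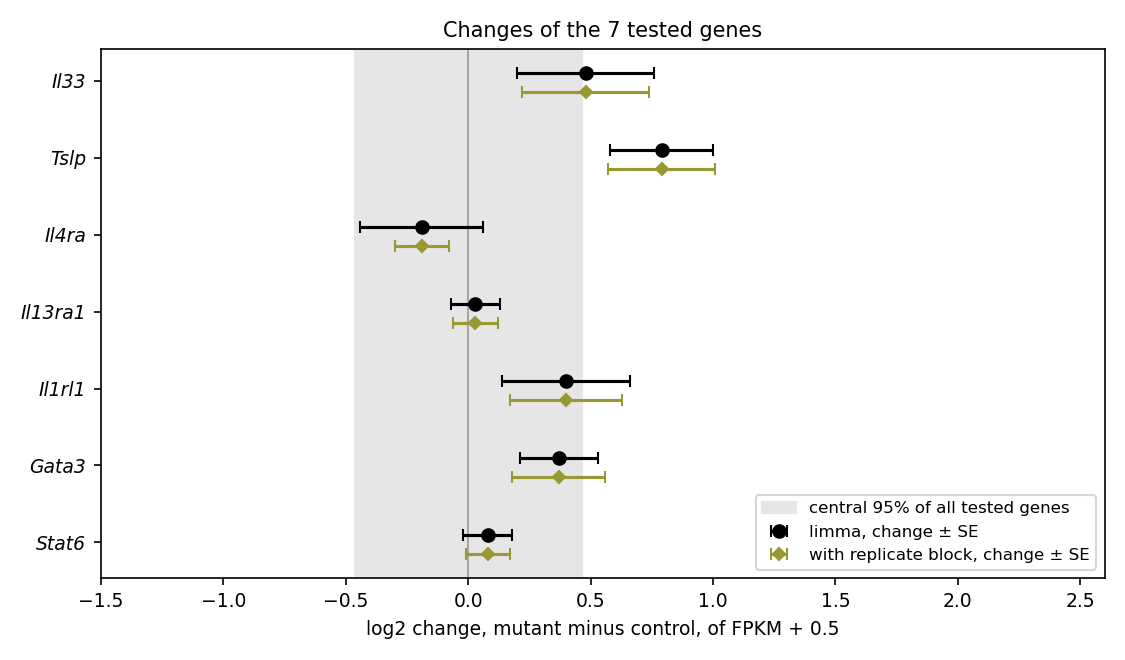
Log2 change (horizontal axis, mutant minus control of log2(FPKM + 0.5)) with its SE for the 7 tested genes, by limma (circles) and by limma with the replicate number as a block (diamonds). The grey band spans the central 95% of all tested genes (-0.46 to 0.47). Tslp lies outside the band, Il33 at its edge, and Il4ra, Il13ra1, Il1rl1, Gata3 and Stat6 within it.

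Partners of these receptors, and the kinases and adaptors that carry their signal inward, showed no call either. Of 21 listed genes 17 were tested, and limma called 0 (0 at an unadjusted p under 0.05, 0 by limma-voom), with a median log2 change of -0.02 beside -0.02 over all tested genes. The common gamma chain Il2rg, which pairs with IL-4Rα on lymphocytes, lay at 10.3 ± 0.902 FPKM across controls and 9.92 ± 2.40 FPKM in mutants. Jak1 and Jak2, kinases of these receptors, lay at 35.0 ± 3.36 against 34.9 ± 0.968 FPKM and at 44.3 ± 6.87 against 51.1 ± 6.39 FPKM. The TSLP receptor chain Crlf2 (5.38 ± 2.08 against 5.47 ± 2.44 FPKM), its partner Il7r (1.55 ± 0.229 against 1.83 ± 0.783 FPKM) and the ST2 partner Il1rap (3.37 ± 1.07 against 2.96 ± 0.602 FPKM) varied as much within groups as between them. The adaptor Myd88, which acts below ST2, lay at 22.8 ± 3.98 against 22.4 ± 3.25 FPKM, and Il5ra, the receptor of IL-5, at most at 0.226 FPKM in any library. The decoy receptor Il13ra2, which IL-13 itself induces, had no read in any control and 2, 0 and 1 reads in mutants 1 to 3.

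The IL-25 axis of tuft cells was highest in mutants 1 and 2. Il17rb, the receptor of IL-25, measured 1.03, 1.26 and 1.39 FPKM across controls 1 to 3, and 4.62, 5.06 and 1.16 FPKM across mutants 1 to 3. Mutants 1 and 2 were several times the controls, and mutant 3 lay within them (log2 change 1.07 ± 0.47, limma adjusted p = 0.999). Without mutant 3 the log2 change of Il17rb was 1.63 (limma adjusted p = 0.00880), in a fit that called 0.468% of all tested genes. That fit leaves out the mutant that lay within the controls, so its p depends on that choice. Without each of the other libraries in turn, 0 of the receptors and kinases were called. Il17rb is also on the lists of tuft cell and of group 2 innate lymphoid and Th2 cell markers below. Il25, the ligand of Il17rb, rested on 1, 0 and 1 reads in controls and 3, 4 and 0 reads in mutants, and Il9 on none in any library.

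The other ligands and the feedback genes likewise gave no call. Of 11 further type 2 and alarmin ligands, 7 were tested and 0 called by limma (0 at an unadjusted p under 0.05, 0 by limma-voom, median log2 change -0.04). Those of highest level were the cytokine Il18 (129 ± 23.5 against 159 ± 25.9 FPKM), the nuclear alarmin Hmgb1 (53.6 ± 4.74 against 52.0 ± 2.29 FPKM) and Areg, an epithelial growth factor, which control 3 set apart (20.5, 13.9 and 73.1 FPKM in controls against 23.1, 17.9 and 41.1 FPKM in mutants). Of 15 feedback and adaptor genes of IL-4 signalling, 14 were tested and 0 called (0 by limma-voom), with a median of 0.06. At an unadjusted p under 0.05 there was 1, beside 3.43% of all tested genes. That gene, named after its values were seen, was Cish, an inhibitor induced by cytokines through STAT5, at 9.61, 7.93 and 8.46 FPKM across controls and 12.96, 10.1 and 15.2 FPKM in mutants (log2 change 0.52 ± 0.16, limma adjusted p = 0.999). Maf (42.8 ± 7.89 against 45.1 ± 1.19 FPKM), Shc1 (27.6 ± 2.25 against 26.9 ± 4.17 FPKM) and Ptpn6 (18.03 ± 3.25 against 24.0 ± 6.33 FPKM) were the highest of that list. Ifng, the type 1 cytokine, was under the filter too, at 0 to 0.468 FPKM across controls and 0.0421 to 0.383 FPKM in mutants.

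Genes known to respond to IL-4 and IL-13 were listed with earlier results of these data known, so the direction of the list as a whole is a description and no support for a difference. None passed the adjusted threshold with all libraries. Of 22 listed, 21 had a gene model and 16 were tested, and limma called 0 of the 16 (7 higher and 0 lower at an unadjusted p under 0.05, 0 calls by limma-voom). Over all 13596 tested genes 245 were higher at that p. Of the 7, 4 (Retnla, Gsdmc2, Gsdmc3 and Gsdmc4) reached 0.5 FPKM in fewer than 3 controls, Gsdmc3 in none, and so passed the filter through the mutants. The median log2 change was 0.77, beside -0.02 over all tested genes, and the mean log2 level was higher in mutants for 14 of 16, beside 6016 of 13596. Relative to the control mean the median gene stood at 1.21, 1.17 and 0.54 in mutants 1 to 3 and 0.14, -0.20 and 0.08 in controls 1 to 3. Every mutant thus lay above every control, and mutant 3 was the lowest of the mutants. Retnlb, the goblet cell protein RELMβ, measured 2.27, 1.42 and 20.9 FPKM across controls, and 619, 792 and 478 FPKM across mutants (log2 change 6.99 ± 1.00, limma adjusted p = 0.512). In the authors' deposited table its fold was 81.1 (adjusted p = 5.43e-20). Arg1, an enzyme of arginine breakdown that IL-4 induces in macrophages, measured 0.872, 0.579 and 0.957 FPKM across controls, and 2.23, 2.75 and 1.17 FPKM across mutants (log2 change 0.93 ± 0.26, limma adjusted p = 0.999). Clca3, a goblet cell secretory protein, measured 546, 506 and 429 FPKM across controls, and 873, 949 and 454 FPKM across mutants, so that mutant 3 fell among the controls. Itln1, a lectin of the same cells, lay at 1020.2 ± 189 against 1370 ± 388 FPKM, and the macrophage product Chi3l3 was at 0 to 0.126 FPKM in every library.

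Within that list 4 genes were called when mutant 3 was left out, namely Pla2g4c, Ang4, Gsdmc2 and Gsdmc4, in a fit that called 63 of 13453 genes (0.468%). That fit leaves out the mutant nearest to the controls on this list, so the 4 calls depend on that choice. Retnlb was called without control 3, as the 1 gene called of all those tested (0.00743%), and 0 of the list were called without each of the other libraries. Pla2g4c, a phospholipase, measured 1.78, 1.34 and 1.54 FPKM across controls, and 114, 94.6 and 2.21 FPKM across mutants, close to the controls in mutant 3. Ang4, an antimicrobial ribonuclease of Paneth and goblet cells, measured 285, 199 and 233 FPKM across controls, and 2656, 1720 and 379 FPKM across mutants. The levels of Ang4 and the Gsdmc genes are uncertain, as both belong to families of similar copies, and how shared reads were counted is not given in the sources used here. Whether IL-4 or IL-13 acted on these genes was not tested.

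Among markers of cells that make or answer type 2 cytokines limma called 0 with all libraries, and their part in the levels of the 10 genes was not tested. The list median of group 2 innate lymphoid and Th2 cell markers overlapped between the groups (-0.02, -0.13 and 0.25 in mutants 1 to 3 beside -0.07, 0.01 and 0.13 in controls). Of 16 listed, 10 were tested and limma called 0 (0 by limma-voom). At an unadjusted p under 0.05 the list held 1, beside 3.43% of all tested genes. The 1 was Nmur1, a neuropeptide receptor named after its values were seen. With the replicate block limma again called 0, but 3 were higher at an unadjusted p under 0.05, against 6.76% of all tested genes in either direction. These were Nmur1, Id2 and, named after its values were seen, Hlf (lowest limma adjusted p = 0.427). The block rests on the assumed pairing by number, so the count of 3 is a description only. In 2 of the 16 all mutants lay above all controls, against 4.11% of genes above 0 in at least 1 library. The list was chosen with earlier results of these data known, so that count is a description. The summed level of the list was 71.2 to 108 FPKM across controls and 83.8 to 127 FPKM in mutants, most of it from Id2 (55.9 ± 20.4 against 65.6 ± 23.7 FPKM), which epithelium also expresses. Thy1 lay at 6.60 ± 2.11 against 6.86 ± 1.94 FPKM. Gpr44, the prostaglandin receptor of Th2 cells, was at or near 0 (at most 0.107 FPKM), Rora lay at 0.522 ± 0.130 against 0.372 ± 0.0430 FPKM, and Klrg1, an inhibitory receptor of innate lymphoid and T cells, had 5, 3 and 4 reads in controls and 17, 14 and 3 reads in mutants. T cell markers, of which 11 of 12 were tested and 0 called (0 at an unadjusted p under 0.05, 0 by limma-voom), had a median log2 change of 0.06, and the CD3 chain gene Cd3g lay at 19.5 ± 3.97 against 18.8 ± 0.435 FPKM.

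Mast cell markers summed to 24.2 to 45.4 FPKM in mutants against 10.5 to 15.8 FPKM across controls, a sum that Mcpt1 and Mcpt2 led, while the list median overlapped between the groups (0.41, 0.78 and 0.20 in mutants 1 to 3 and -0.27, 0.06 and 0.21 in controls 1 to 3). Of 12 listed, 7 were tested and limma called 0 (3 higher at an unadjusted p under 0.05, 0 calls by limma-voom), with a median log2 change of 0.46. Among all 13596 tested genes 245 were higher at that p, and the median was -0.02. Of the 7, 3 (Mcpt4, Cpa3 and Hdc) reached 0.5 FPKM in fewer than 3 controls. Mcpt1, a protease of mucosal mast cells, measured 3.82, 4.83 and 6.39 FPKM across controls, and 11.5, 24.8 and 13.2 FPKM across mutants (log2 change 1.57 ± 0.31, limma adjusted p = 0.767), and Mcpt2 at 2.65 ± 0.779 against 6.33 ± 3.36 FPKM. The third marker was the carboxypeptidase gene Cpa3 (0.6003 ± 0.285 against 1.42 ± 0.745 FPKM), and Kit lay at 3.01 ± 0.301 against 3.68 ± 0.727 FPKM. The log2 change of Gata2, a transcription factor of mast cells, was -0.23. Cpa3, like Nmur1 and the eosinophil gene Ear2, reached 0.5 FPKM in fewer than 3 controls and passed the filter through the mutants. These proteases share similar sequence, so reads may be split between them. Eosinophil and basophil markers summed to 6.75 to 9.68 FPKM across controls and 8.10 to 28.4 FPKM in mutants, with 5 of 12 tested, 0 called by limma (1 at an unadjusted p under 0.05, Ear2, named after its values were seen, and 0 calls by limma-voom) and a median of 0.57. Siglec5, the gene of Siglec-F, which tuft cells also express, led that sum, at 1.93, 2.95 and 0.938 FPKM across controls and 13.9, 15.6 and 1.37 FPKM across mutants. Of their granule genes Prg2 was detected (2.16 ± 0.902 against 3.32 ± 0.758 FPKM), while Epx had at most 0.0376 FPKM, and Mcpt8 and Prss34 had no reads.

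Tuft cell markers set mutants 1 and 2 apart from the other 4 libraries. Their summed level was 47.0 to 59.4 FPKM across controls and 175, 197 and 51.6 FPKM in mutants 1 to 3, and the list median relative to controls was 1.69, 2.06 and -0.10. Limma called 0 of 11 tested markers with all libraries (2 higher at an unadjusted p under 0.05, 0 calls by limma-voom). Of all 13596 tested genes, 245 were higher at that p. Without mutant 3 limma called 8 markers, beside 63 of all 13453 tested genes (0.468%). Without each of the other libraries in turn it called 0. The fit without mutant 3 leaves out the mutant that lay near the controls on this list. Its 8 calls depend on that choice and are no support for a difference. Dclk1, a kinase that marks the tuft cell, lay at 1.45 ± 0.260 FPKM across controls and at 5.67, 5.88 and 1.32 FPKM in mutants 1 to 3. Trpm5, the ion channel of tuft cell signalling, lay at 2.43 ± 0.908 FPKM across controls and at 11.05, 11.95 and 2.98 FPKM in mutants. Alox5ap, which helps make leukotrienes, averaged 9.47 ± 2.32 FPKM across controls and 31.7 ± 19.3 FPKM across mutants, while Ptgs1 stood in mutants at 13.1 ± 1.77 beside 12.3 ± 0.760 FPKM. The markers at an unadjusted p under 0.05 were Trpm5 and, named after its values were seen, Ltc4s. Il25 and Il17rb, described above, are themselves on this list, and Il17rb is among the 8 called without mutant 3. Of the 10 genes, Il13, Il1rl1 and Tslp were also highest in mutants 1 and 2. For Il13 and Il1rl1, mutant 3 was within the range of the controls. The share of all genes with that order of libraries was not counted, so it is a description only. Il13, like Il25, rests on few reads. Il1rl1 exceeded the highest control by a narrow margin (7.42 and 7.76 against 6.96 FPKM). Tslp, Gata3 and Il4 lay above the controls in mutant 3 as well, and Il33 was highest there.

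**Figure D5:**
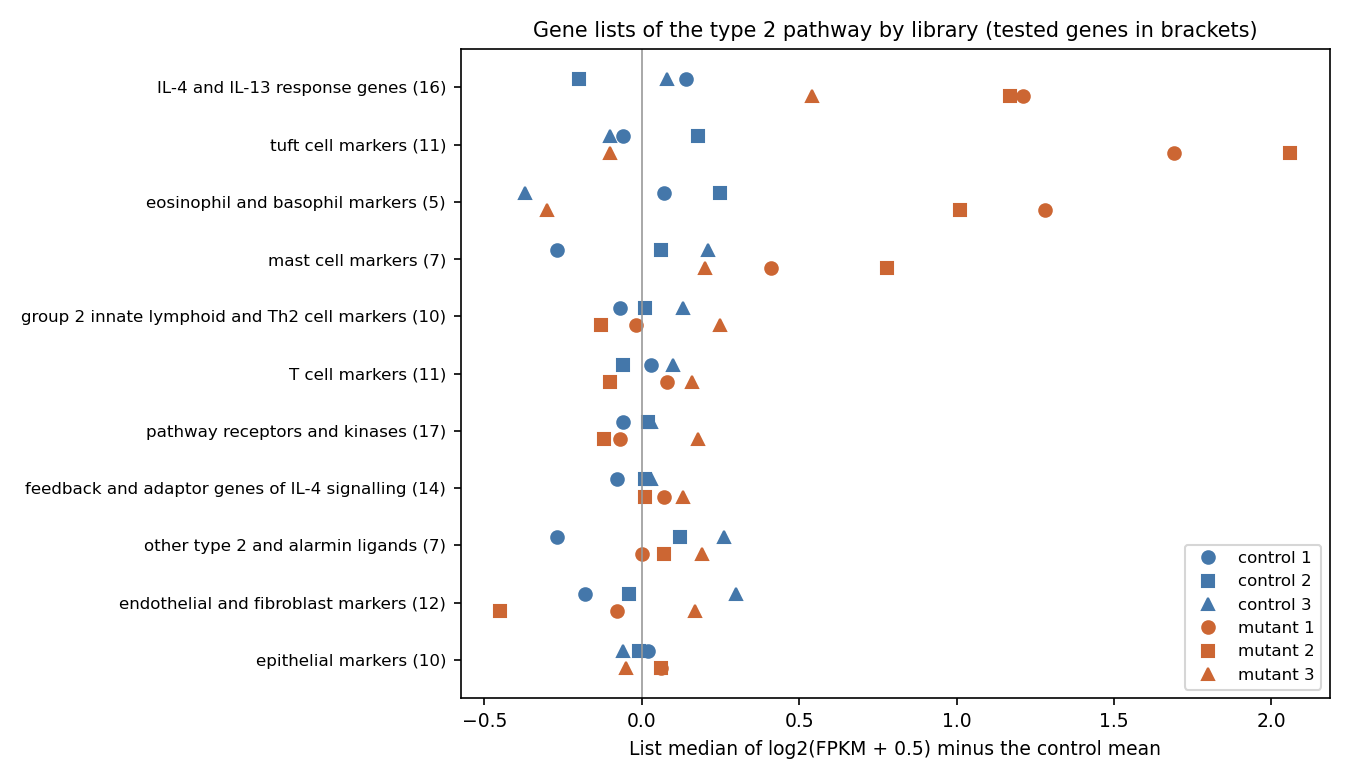
Median, over the tested genes of each list, of log2(FPKM + 0.5) minus the control mean (horizontal axis), by library (blue controls, orange mutants, number of tested genes in brackets). The response genes lie above all controls in every mutant (0.54 to 1.21), tuft cell markers in mutants 1 and 2 alone (1.69 and 2.06), and the lists of receptors and kinases, T cells and group 2 innate lymphoid and Th2 cells overlap between groups.

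For each tested gene the 1 gene most like it was sought by Pearson's r of log2 values over the 6 libraries among 13596 genes, as a description. Such a search returns a high r for nearly any gene. The most alike were Enpp1 for Il4ra (r = 0.999), Scml4 for Stat6 (0.997), Iqcc for Gata3 (0.992), Cdk8 for Tslp (0.989), E130203B14Rik for Il33 (0.986), Enc1 for Il1rl1 (0.981) and Stx18 for Il13ra1 (0.978). Enpp1 shared with Il4ra the high values of both libraries numbered 3, at 6.81 FPKM in control 3 and 6.56 FPKM in mutant 3 against 4.57 to 5.40 FPKM in the rest. Cdk8, a kinase of the Mediator complex, spanned only 19.6 to 23.3 FPKM, while Tslp spanned a severalfold range over the same libraries.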

How the data were processed

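Total RNA of a RIN above 8 was made into TruSeq libraries, per the labels' protocols. The tools the authors used were DESeq, Cufflinks, TopHat and CASAVA 1.8.2, and their genome build was mm9, per the submitters' processing notes, which state no options. Strand use and the treatment of shared reads are not given in the sources used here. The authors deposited FPKM per gene (23699 models) and per isoform (30028), and a coverage signal per isoform, per the file headers. A further table deposited by the authors compares the groups, holding the average normalized signal of each group, the ratio between them (linear fold and log2) and p-values before and after adjustment.

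Depth was taken from FPKM and coverage. Reads were rebuilt from coverage, fitting a read length of 101.0 bases and a length offset of 211 bases. Of 17125 values up to 20 reads, 93.7% were within 0.1 of a whole number. Intervals are exact, at 95%. Genes with 3 or more libraries at 0.5 FPKM or higher were tested as log2(FPKM + 0.5) with limma 3.58.1 in R 4.3.3 (trend and robust prior, statmod 1.5.0), two-sided, with p-values adjusted by Benjamini-Hochberg and called under 0.05. The 16213 isoforms that met the same filter had their own fit. The fits were tested on simulated data with 200 changed entries. The gene fit recovered 56% of log2 changes of 1 and 91% of changes of 2, and 3.92% of its calls were false. For the isoform fit these values were 37%, 88% and 3.85%. A log2 change of 1 can thus go uncalled. The 712 entries that share a gene name were separated by locus. File coordinates, which start from 0, were raised to count from 1. Python 3.11.15, pandas 2.3.3, numpy 2.4.6, scipy 1.17.1 and matplotlib 3.10.9 served for exact tests, tables and plots.

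The 10 genes and the lists were chosen with earlier results of these data known. All 10 are named. Of the lists, a fixed set of genes, the leading ones by mean level and any past the threshold are named, and others are named as chosen after their values were seen. Both groups carry numbers 1 to 3. Deviations from the group means correlated at 0.26, 0.25 and 0.58 in same-numbered pairs. Control 1 had a value of 0.30 with mutant 2, and control 2 a value of 0.19 with mutant 1. The values thus link the libraries numbered 3, but do not tell which of libraries 1 and 2 belong together. Pairing by number was an assumption taken from these same data and not from the labels, and the replicate block and the counts of pairs rest on it.

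Alternatives were no filter, a minimum of 1 FPKM, pseudocounts of 1 and 0.1, scaling by quantiles, TPM or upper quartile, the replicate block, no gene models under 200 bases, a plain prior, each library left out, and limma-voom on rebuilt reads. Counts of the lists without each library were added after seeing the data.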

Additional observations from a re-analysis of the deposited data

How the results depend on the processing

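Limma called 0 of the 7 tested genes with all libraries, and 0 of those that could be tested in each of 17 alternatives. Il4, Il5 and Il13 were tested only without the filter, and Tslp and Gata3 were not tested at a minimum of 1 FPKM or without any 1 mutant. Over all genes it called 3, and 1 without the filter, 1 with upper quartile scaling, 0 without gene models under 200 bases (466 at an unadjusted p under 0.05), 0 by limma-voom on rebuilt reads (478), 0 to 63 with single libraries left out (0 without control 1 or control 2, 1 without control 3, 9 without mutant 1, 63 without mutant 3), and 22 with the replicate block (9 higher, 13 lower). Of isoforms it called 1, and 4 without the filter, 3 with the replicate block, 0 without models under 200 bases (610), 5 with a plain prior, and 0 to 5 with single libraries left out. The replicate block changed no call among the 7 tested genes, and called 0 genes of every list. With it, 6 of 16 response genes, 3 of 7 mast cell markers and 2 of 11 tuft cell markers had an unadjusted p under 0.05. So did 2 of 5 eosinophil and basophil markers, 2 of 14 feedback genes, 1 of 17 receptors and kinases and 1 of 7 other ligands. All were higher in mutants, beside 6.76% of all tested genes in either direction. Some passed the filter through the mutants, so these counts are no support for a difference.

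The size of the log2 change of low genes depends on the pseudocount. With 0.1 it was 1.45 for Il4, -0.13 for Il5, 0.80 for Il13, 1.26 for Tslp and 0.67 for Gata3, with 1 it was 0.34 for Il4, and limma-voom gave 1.5 for Tslp and 0.83 for Gata3. With single libraries left out the log2 change ranged from 0.46 to 0.71 for Il4, -0.06 to -0.01 for Il5, 0.15 to 0.44 for Il13, 0.16 to 0.70 for Il33, 0.63 to 0.99 for Tslp, -0.42 to 0.01 for Il4ra, -0.02 to 0.08 for Il13ra1, 0.08 to 0.57 for Il1rl1, 0.31 to 0.47 for Gata3 and 0.04 to 0.14 for Stat6. Its sign was kept in all alternatives that gave a value except in 1 of 17 for Il4ra and 2 of 17 for Il13ra1. Depth limits Il4, Il5 and Il13, for which a few reads set each value.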
